A study of Mus musculus with 6 samples.

Results

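The genes described here encode collagen chains that do not form the banded fibrils of scar tissue: the network collagens IV and VIII, the microfibrillar collagen VI, the fibril-associated collagens XII and XIV, and the basement membrane zone collagens XV and XVIII. They were taken by symbol from a fixed set of 10 genes, and 8 of them, with 9 probes in all, were named in the platform annotation, out of 16446 annotated genes. Col8a1 and Col18a1 have no probe under those symbols and were not analysed here. The measurements are single-colour microarray signals from hepatic stellate cells, the pericytes of the liver sinusoid, of mice with cirrhosis produced by the hepatotoxin carbon tetrachloride. There were 3 arrays of Sept4 knockout cells (KO) and 3 of wild-type cells (WT), and both genotypes had received the toxin, so no uninjured liver is included. Sept4 encodes a septin, a GTP-binding protein that builds filaments. The labels give neither strain, sex nor age, do not say how the allele was made, and leave it unstated whether an array is 1 mouse, a pool or a repeat hybridisation, so p-values measure only the spread between these arrays, which may be technical.

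Collagen IV forms the mesh of basement membranes, in which the chains encoded by Col4a1 and Col4a2 join in a single heterotrimer. Collagen VI is assembled from different chains into beaded microfilaments that link cells and basement membranes to the surrounding matrix. Collagens XII and XIV attach to the surface of collagen I fibrils and affect how fibrils pack, and collagens XV and XVIII carry glycosaminoglycan chains and release antiangiogenic fragments from their ends. In the healthy liver the sinusoid has only a discontinuous basement membrane, and activated stellate cells are known to deposit a continuous one during fibrosis.

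The genes moved in both directions. Of the 8 measured, 4 were higher in KO cells (Col4a1, Col6a1, Col6a2 and Col14a1), 2 were lower (Col4a2 and Col12a1), and Col6a3 and Col15a1 did not reach the threshold, an adjusted p under 0.05 in limma. The largest difference was that of Col6a1, which was 2.31-fold higher in KO cells. The 2 chains of the collagen IV heterotrimer, each read by a single probe, went opposite ways. Across all 23473 probes, 42.7% passed, 26.7% as higher and 16.0% as lower in KO cells. The median log2 difference of the 8 genes was 0.32, beside 0.12 over all probes. With so many probes passing, the number of collagen genes that passed says little by itself, and the sizes and directions below are the data. In a bulk sample, fewer cells of a type and less RNA per cell cannot be told apart.

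The arrays correlated at 0.981 to 0.982 among KO arrays, 0.986 among WT arrays and 0.967 to 0.971 between the genotypes. As deposited, 62.6% of the probes that passed were higher in KO cells. This share was 52.5% after quantile normalisation and 51.5% after cyclic loess, where the median difference of all probes was 0.02 and 0.01. Small rises are therefore best read against that shift. The highest value of an array was 16.6 to 16.8 in KO cells and 15.7 to 15.8 in WT cells. The labels do not say whether both genotypes were hybridised together, and if they were not, processing and genotype cannot be told apart. Of 12 stellate cell markers, 11 were measured, and none lay at the lowest value of an array, while 8 were higher and 1 lower in KO cells. Their summed signal was 13.37 to 13.42 on KO arrays and 12.64 to 12.70 on WT arrays, as log2. Vascular smooth muscle markers, several of which myofibroblasts share, were lower for 7 of 9 and higher for 1, with summed log2 signals of 14.77 to 14.87 in KO cells and 15.49 to 15.66 in WT cells. Of 13 endothelial markers, which matter here because endothelium also makes collagens IV, XV and XVIII, 4 were higher and 2 lower. The other 7 did not pass. Their summed log2 signals were 10.58 to 10.63 in KO cells and 10.22 to 10.24 in WT cells, and Vwf was the one at the lowest value on any array. Such sums add linear signals, so the brightest genes weigh most. These were Egfl7 in endothelium (means 9.84 in KO, 9.35 in WT cells) and Acta2 in smooth muscle (14.69 and 15.25). The stellate, smooth muscle and endothelial lists had 81.8%, 88.9% and 46.2% passing, beside 42.7% of all probes. The part of these cell types in the collagen differences was not tested. Sept4 is not among the annotated symbols used here. The Wnt antagonist Dkk2, whose loss the title of the series names, differed by -3.97 on the log2 scale, and by -2.86 with a linear offset added before the logarithm. Its mean log2 signal was 0.82 ± 0.43 in KO cells, with 1 KO array at its lowest value, and 4.79 ± 0.02 in WT cells (SD, n = 3 each), so the size of its fall is imprecise.

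The collagen IV genes Col4a1 and Col4a2 share a start region on chromosome 8 and are read away from each other. Their start region is shown because the chains it serves differed in opposite directions. In the RefSeq sequences of mouse build GRCm38.p6, the start used for Col4a2 on the plus strand is 11312805. That used for Col4a1 on the minus strand is 11312826. The annotated Col4a1 gene extends upstream of that start, so the overlap given here holds for these starts only. Transcripts from these starts overlap by 22 bases, which are in capitals in the following plus-strand stretch at chr8:11312801-11312830.
Col4a1 and Col4a2 start region: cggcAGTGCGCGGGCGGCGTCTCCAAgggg
The capitals contain the letters GGGCGG, a GC box as bound by Sp1-like factors. In the 250 bases before each start, those letters occur 0 times for Col4a1 and 2 times for Col4a2 on either strand, and 32.7% of all 32851 mouse windows of that length hold them. These matches describe the letters only.

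Col4a1 gave log2 signals of 7.01, 6.97 and 6.99 in KO cells, against 6.49, 6.42 and 6.38 in WT cells. Every KO array was above every WT array. The log2 difference was 0.56 ± 0.05 (SE, n = 3 each), or 1.47-fold higher in KO cells (adjusted p = 0.0012, limma). Col4a2 gave 11.81, 11.84 and 11.89 in KO cells, against 12.28, 12.30 and 12.20 in WT cells. Here every KO array was below every WT array. The log2 difference was -0.41 ± 0.05 (SE, n = 3 each; adjusted p = 0.0032, limma), and it was -0.64 after cyclic loess. Values that do not overlap between the genotypes were seen for 56.2% of all probes, so the lack of overlap alone does not set these genes apart.

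The microfibrillar collagen VI genes Col6a1 and Col6a2 lie next to each other on chromosome 10 and were both higher in KO cells. Col6a1 gave 10.73, 10.85 and 10.89 in KO cells, against 9.60, 9.66 and 9.59 in WT cells. The lowest KO array was 1.07 above the highest WT array, the widest gap among these genes. The log2 difference of Col6a1 was 1.21 ± 0.06 (SE, n = 3 each; adjusted p = 4.73e-04, limma). Col6a2 gave 6.31, 6.48 and 6.36 in KO cells, against 6.10, 5.88 and 5.96 in WT cells. The groups did not overlap, but they lay closer together, and the log2 difference was 0.40 ± 0.08 (SE, n = 3 each; adjusted p = 0.0146, limma). Without WT replicate 3, the difference of Col6a2 was 0.39 (adjusted p = 0.0502, limma).

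The 250 bases before the starts of Col6a1 and Col6a2 are shown because these neighbours were higher together. They are from RefSeq, build GRCm38.p6, minus strand, at chr10:76726045-76726294 and chr10:76623631-76623880, of which the second lies before the most upstream start listed for Col6a2. Capitals mark matches, on either strand, to the motifs searched for: the GC box GGGCGG, the box CCAAT bound by NF-Y, the TATA box letters TATAAA, and the AP-1 site letters TGAGTCA.
Col6a1: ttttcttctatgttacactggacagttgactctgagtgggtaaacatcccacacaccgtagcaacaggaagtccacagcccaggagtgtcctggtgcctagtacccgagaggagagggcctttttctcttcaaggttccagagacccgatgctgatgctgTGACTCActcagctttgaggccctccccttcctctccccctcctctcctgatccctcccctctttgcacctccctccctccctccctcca
Col6a2: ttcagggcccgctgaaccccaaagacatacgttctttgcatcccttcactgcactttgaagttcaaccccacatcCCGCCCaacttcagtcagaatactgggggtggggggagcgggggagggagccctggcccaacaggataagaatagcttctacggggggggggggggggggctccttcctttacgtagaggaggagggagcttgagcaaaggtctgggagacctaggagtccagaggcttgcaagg
The Col6a1 window held 1 match to TGAGTCA, the letters of an AP-1 site, which 4.46% of all windows hold. The Col6a2 window held 1 match to GGGCGG, and the 250 bases before the other start listed for Col6a2, at chr10:76623405-76623654, held 3, a pair of which overlap. None of these windows held TATAAA, present in 12.4% of all windows, or CCAAT, present in 33.8%. The matches are descriptions of letters and not of binding.

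Col6a3, the chain that collagen VI needs to complete its usual heterotrimer, read 2.76, 2.94 and 3.17 in KO cells, against 2.81, 2.68 and 2.69 in WT cells. The groups overlapped, since the lowest KO array was below the highest WT array. The log2 difference was 0.23 with a 95% confidence interval of -0.07 to 0.54 (adjusted p = 0.18, limma), so a rise as large as that of Col6a2 lies within the interval and one as large as that of Col6a1 does not. The probe was dim, and of the 5002 probes with a mean signal of 2 to 4, 19.1% passed.

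**Figure D1:**
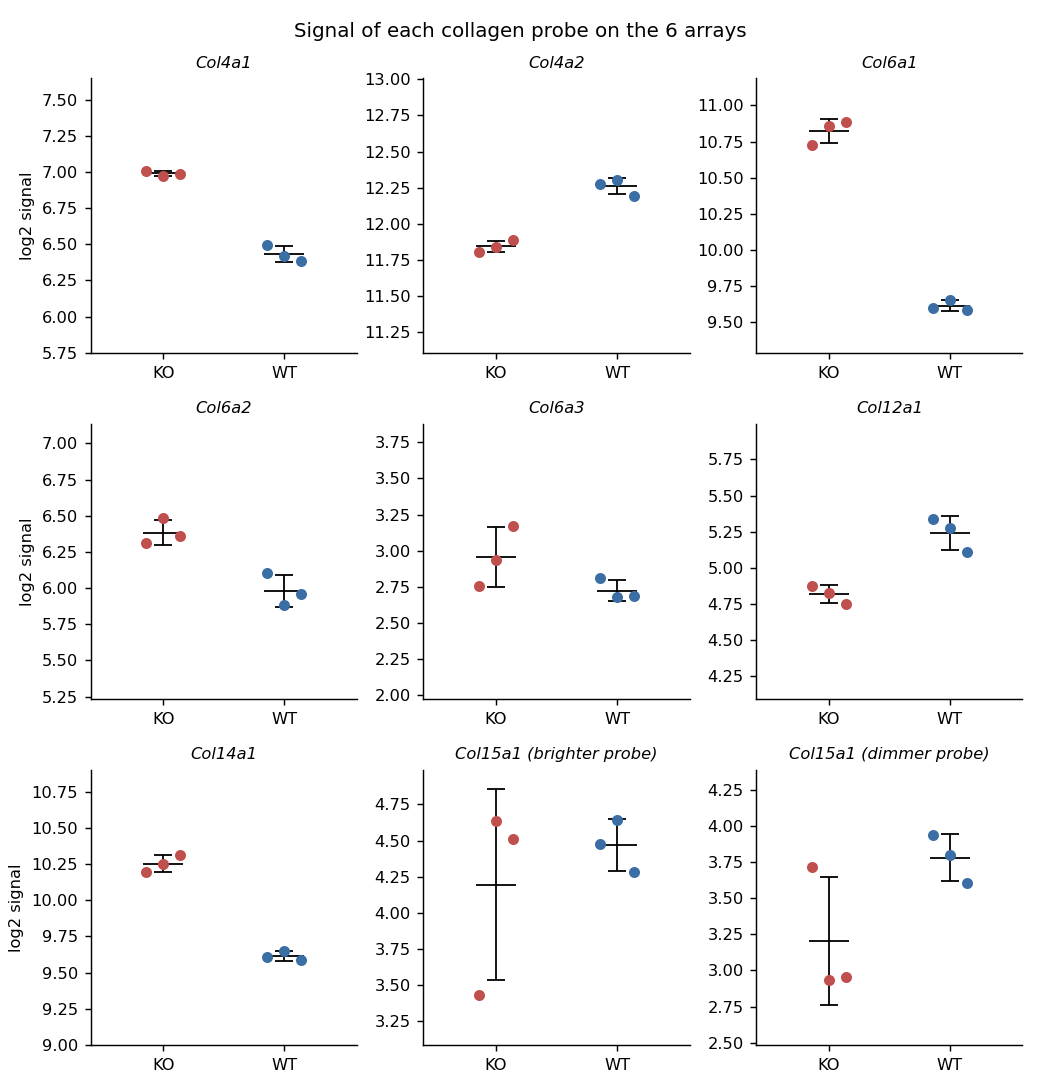
Log2 signal (vertical axis, each panel spanning the same range of log2 units around its own values) of the 9 collagen probes on the 3 KO and 3 WT arrays; points are arrays, the bar is the mean and the error bar the SD. The KO points of Col6a1 (10.73 to 10.89) lie well above its WT points (9.59 to 9.66), whereas the groups overlap for Col6a3 and for both probes of Col15a1.

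The fibril-associated collagen genes Col12a1 and Col14a1 differed in opposite directions. Col14a1 gave 10.19, 10.25 and 10.31 in KO cells, against 9.61, 9.65 and 9.59 in WT cells. All KO arrays were higher, and the log2 difference was 0.64 ± 0.05 (SE, n = 3 each; adjusted p = 0.001, limma). Col12a1 gave 4.88, 4.83 and 4.75 in KO cells, against 5.34, 5.28 and 5.11 in WT cells. All KO arrays were lower, and the log2 difference was -0.42 ± 0.08 (SE, n = 3 each; adjusted p = 0.0109, limma). Collagen XIV is known from mature, quiescent connective tissue and collagen XII from tissues under mechanical load.

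Col15a1, which encodes a proteoglycan collagen at the outer face of basement membranes, was read by a pair of probes, and neither passed. The brighter probe gave 3.44, 4.64 and 4.51 in KO cells, against 4.48, 4.64 and 4.28 in WT cells. KO replicate 1 was the low one, and the other KO arrays lay within or near the WT range. The log2 difference of that probe was -0.27 with a 95% confidence interval of -1.17 to 0.63 (adjusted p = 0.58, limma). The dimmer probe gave 3.71, 2.94 and 2.96 in KO cells, against 3.93, 3.80 and 3.61 in WT cells. On it KO replicate 1 was the high one, so the probes disagreed about that array. The log2 difference of the dimmer probe was -0.58 (adjusted p = 0.12, limma). Without KO replicate 1, the difference was 0.11 on the brighter probe (adjusted p = 0.56, limma) and -0.83 on the dimmer one (adjusted p = 0.0108, limma). When the probes were averaged, Col15a1 differed by -0.42 (adjusted p = 0.0266, limma). The call of Col15a1 thus depended on the probe and on 1 array.

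**Figure D2:**
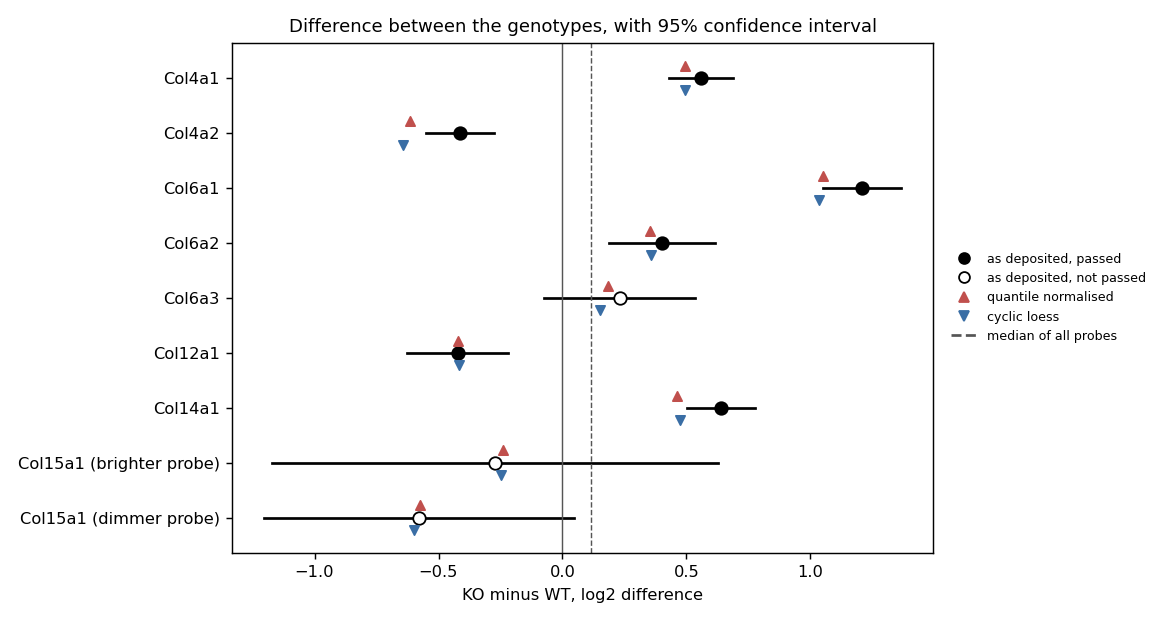
Log2 difference, KO minus WT, of each collagen probe (circles, with the 95% confidence interval from limma; filled where the adjusted p was under 0.05), with the values after quantile normalisation and cyclic loess. The dashed line is the median of all probes as deposited, 0.12; Col4a1, Col6a1, Col6a2 and Col14a1 lie to its right and Col4a2 and Col12a1 to the left of 0 under all 3 scalings.

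Because the chains of collagen IV and those of collagen VI are assembled together, the log2 ratio of partner chains was taken within each array. This removes any factor that scales a whole array. The level of such a ratio depends on the probes, and its difference between the genotypes is the measurement. There were 5 pairs, and the ratio of Col15a1 to Col18a1 was not analysed here. Col12a1 and Col14a1 encode separate collagens and were paired only as genes of the same family. The ratio of Col4a1 to Col4a2 was -4.80, -4.87 and -4.90 in KO cells, against -5.79, -5.88 and -5.81 in WT cells. Its log2 difference was 0.97 ± 0.04 (SE, n = 3 each), where the SD within each genotype was 0.05, and all KO arrays were higher. The ratio of Col6a1 to Col6a2 differed by 0.81 ± 0.09 and that of Col6a1 to Col6a3 by 0.98 ± 0.09 (SE, n = 3 each), with all KO arrays higher. The Col6a1 probe thus rose more than the probes of its partner chains. These probes were unlike in brightness, with KO means of 10.82 for Col6a1, 6.38 for Col6a2 and 2.96 for Col6a3. The same held for the other pairs, with KO means of 6.99 for Col4a1 and 11.85 for Col4a2. For Col12a1 and Col14a1 they were 4.82 and 10.25. Whether brightness affects the ratios was not tested. The ratio of Col6a2 to Col6a3 differed by 0.17 ± 0.12 (SE, n = 3 each), and its groups overlapped. The ratio of Col12a1 to Col14a1 differed by -1.06 ± 0.09 (SE, n = 3 each), with all KO arrays lower. The exact two-sided permutation test gave p = 0.1 for the 4 pairs whose groups did not overlap, the smallest that 3 arrays against 3 can give, and 0.125 after adjustment over the 5 pairs. For Col4a1 to Col4a2 and for Col12a1 to Col14a1 this outcome was fixed in advance. The genes of each of these pairs had moved in opposite directions without overlap, so the separation of their ratios adds no evidence. For Col6a2 to Col6a3 the exact permutation test gave p = 0.4, also after adjustment.

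**Figure D3:**
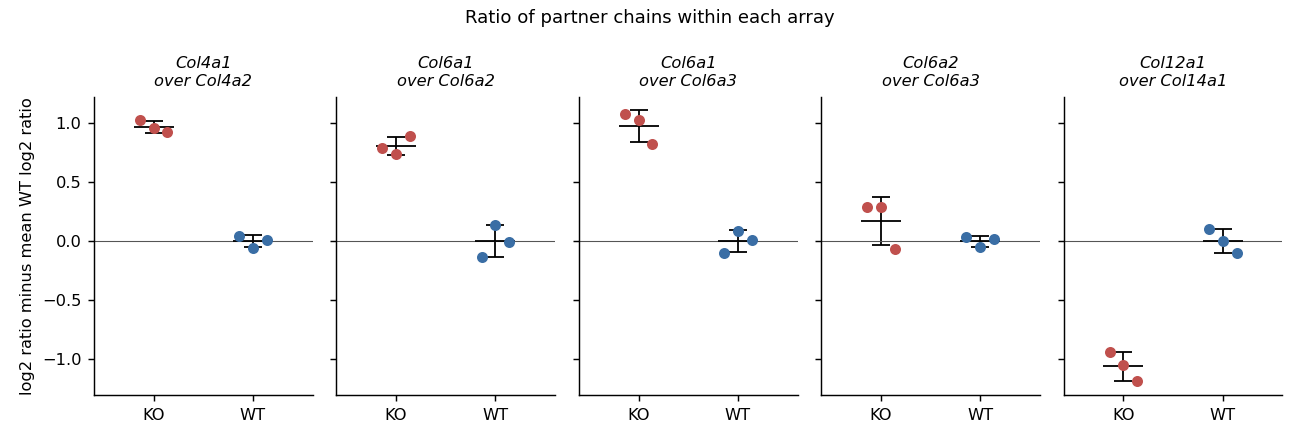
Log2 ratio of partner chains on each array, shown as the deviation from the mean WT ratio (vertical axis, log2 units) for the 3 KO and 3 WT arrays; points are arrays, the bar is the mean and the error bar the SD. The KO points lie apart from the WT points for every pair except Col6a2 over Col6a3, and below them for Col12a1 over Col14a1, which encode separate collagens. For Col4a1 over Col4a2 and Col12a1 over Col14a1 this follows from the single genes, which moved in opposite directions without overlap.

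Other parts of the basement membrane were also measured. Of 26 laminin, nidogen, perlecan and related genes, 10 were higher and 3 lower in KO cells, so 13 passed and 13 did not, and the median log2 difference was 0.27. The laminin chain gene Lama1 rose by 1.30 ± 0.06 (SE, n = 3 each), with means of 7.27 ± 0.06 in KO cells and 5.96 ± 0.07 in WT cells (SD) and an adjusted p of 4.46e-04 in limma. Lama5, which encodes a further laminin alpha chain, rose by 0.63, and Frem1, which anchors basement membrane to the underlying matrix, by 0.67. Nephronectin (Npnt), an integrin ligand in basement membranes, fell by 1.02 (0.82 with the linear offset). Its probe was dim, with means of 2.79 in KO cells and 3.81 in WT cells. After quantile normalisation and after cyclic loess, 9 were higher and 3 lower, and the median was 0.13 and 0.10.

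Other collagen genes went both ways as well. Among 19 other non-fibrillar collagens, 3 were higher and 2 lower in KO cells, or 26.3% passing, beside 42.7% of all probes. Col16a1, a further fibril-associated collagen, rose by 0.91 ± 0.07, Col17a1, a transmembrane collagen of hemidesmosomes, by 0.77 ± 0.08, and Col9a3, a chain of the cartilage collagen IX, by 0.63 ± 0.13 (SE, n = 3 each). Col7a1, the collagen of anchoring fibrils, fell by 0.67 ± 0.09 (SE, n = 3 each). The other call, chosen here after its value was seen, was the minor collagen IV chain gene Col4a5, which fell by 0.62 (adjusted p = 0.0072, limma). Of 11 fibrillar collagens, 5 were higher and 2 lower, or 63.6% passing, and 4 and 3 after either scaling. On the log2 scale Col3a1 rose by 2.09, Col24a1 rose by 0.71 and Col1a2 fell by 1.20. Col11a1 fell by 2.40 (1.40 with the linear offset), and lay at the lowest value on 1 KO array. The medians of the non-fibrillar and fibrillar lists were 0.04 and 0.23. The first turned to -0.02 and -0.05 after quantile normalisation and cyclic loess, and the second to 0.03 and -0.02.

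Receptors for collagen moved in both directions. Of 18 measured, 4 were higher and 2 lower in KO cells, or 33.3% passing, beside 42.7% of all probes, and the median of the list was -0.05. After quantile normalisation 3 were higher and 3 lower, and after cyclic loess 3 and 5, with medians of -0.13 and -0.155. The integrin chain gene Itgb3 rose by 0.97 ± 0.06 and the collagen-binding integrin chain gene Itga2 by 0.54 ± 0.16, whereas Antxr2, an anthrax toxin receptor known to mediate uptake of collagen VI, fell by 0.52 ± 0.05 (SE, n = 3 each). Antxr2 gave means of 7.83 ± 0.04 in KO cells and 8.35 ± 0.06 in WT cells (SD, n = 3; adjusted p = 0.0017, limma). The endocytic collagen receptor gene Mrc2 was dim and rose by 1.34, but its adjusted p was 0.076 after quantile normalisation and 0.069 after cyclic loess. The call of Mrc2 ended without any 1 array other than WT replicate 1 (adjusted p = 0.058 to 0.13, limma). That of Itga2 ended without KO replicate 1 or 2 or WT replicate 2 or 3 (adjusted p = 0.10 to 0.13, limma).

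Genes that fold and export collagen chains were mostly higher among those that passed, as were 62.6% of all probes that passed. Of 22 measured, 10 were higher and 1 lower in KO cells, and 11 did not pass, beside 42.7% of all probes that passed. After cyclic loess 9 were higher and 5 lower. P3h3, annotated as Leprel2 and encoding a prolyl 3-hydroxylase family member, rose by 1.33 ± 0.05, and Sec24d, part of the coat that carries procollagen out of the endoplasmic reticulum, by 1.03 ± 0.06 (SE, n = 3 each). The lysyl hydroxylase gene Plod2 had means of 5.47 ± 0.17 in KO cells and 4.47 ± 0.11 in WT cells (SD, n = 3) and also rose (adjusted p = 0.0020, limma). The export receptor gene Mia2 differed by 1.31, but it lay at the lowest value on 2 WT arrays. Its call ended after quantile normalisation (adjusted p = 0.10, limma), after cyclic loess, with a trended and robust variance prior, and without KO replicate 1 or 3 or WT replicate 1 or 2 (adjusted p = 0.10 to 0.12, limma). Of 18 proteases and inhibitors that act on basement membrane collagen, 4 were higher and 5 lower, and 9 did not pass. This too stands beside 42.7% of all probes that passed. After cyclic loess 3 of these genes were higher and 9 lower. The gelatinases that cleave collagen IV, Mmp2 and the dim Mmp9, rose by 1.21 and 1.59 on the log2 scale (Mmp9 by 0.82 with the linear offset), and the protease gene Mmp3 by 1.32. Mmp9 lay at the lowest value on 1 WT array, and its call ended without KO replicate 1 or WT replicate 2 or 3 (adjusted p = 0.0735 to 0.0853, limma). The metalloproteinase inhibitor gene Timp1 fell by 1.52. The medians of the receptor and protease lists were -0.05 and -0.11, and that of the folding list was 0.21.

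**Figure D4:**
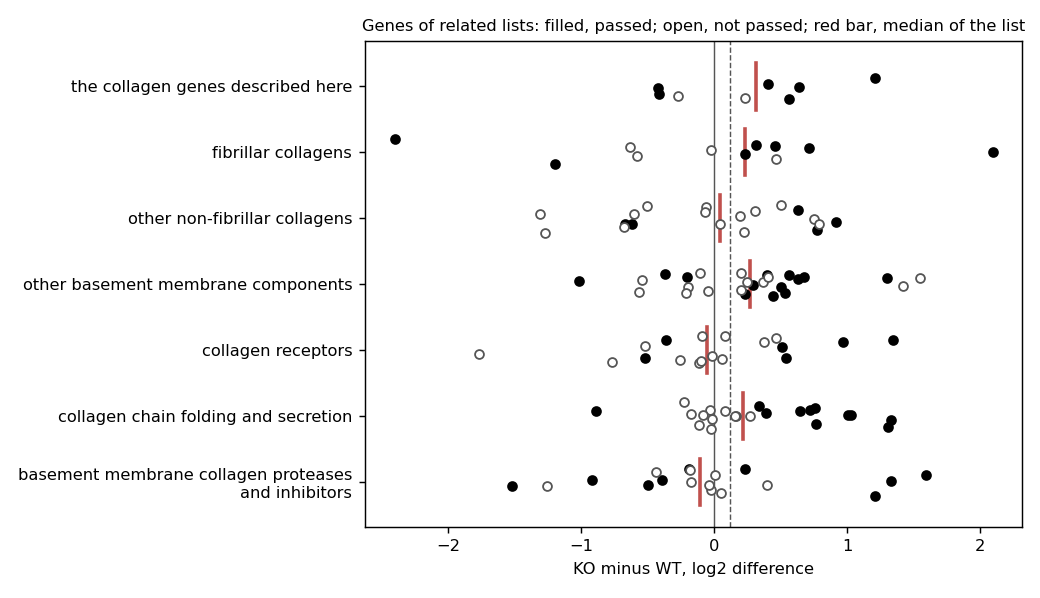
Log2 difference, KO minus WT (horizontal axis), of each measured gene of the collagen genes described here and of 6 related lists; filled points passed an adjusted p of 0.05 in limma, open points did not, the red bar is the median of the list, the vertical jitter has no meaning, and the dashed line is the median of all probes. Filled points lie on both sides of 0 in every list.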

How the data were processed

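Gene expression was analysed in 6 arrays of mouse hepatic stellate cells, 3 KO and 3 WT. The authors deposited normalised log2 signals for 23473 probes, quantile normalised per the labels. Base 2 was inferred from the range, 0 to 16.8, as no source states it; the labels name no scanner software or background correction. The labelling text in the labels refers to microRNA reagents and tumour tissue, unlike the design text, so groups follow the genotype titles. Array medians were equal (5.02), but the values do not fully bear out the quantile normalisation that the labels name: upper quartiles were 7.82 to 7.84 in KO and 7.70 to 7.73 in WT arrays, and lowest and highest values also differed between arrays. Probe symbols came from the platform annotation, which names 16631 probes; older symbols were matched through a RefSeq table. The probe with the highest mean stood for a gene.

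Differences, KO minus WT, were fitted with limma 3.58.1 (lmFit, eBayes) in R 4.3.3, two-sided, with Benjamini-Hochberg adjustment over all probes and a threshold of 0.05. Partner chain ratios were tested by exact permutation over arrays. Collagen genes and related lists were chosen with earlier results of these data known. Besides the collagen genes, the text names up to 4 genes of each related list, those with the largest differences among genes that passed without overlap, and gives every cell type list by count here or in the text. Portal fibroblast markers were higher for 3 and lower for 2 of 10, hepatocyte 2 and 1 of 10, cholangiocyte 0 and 2 of 6, macrophage 1 and 2 of 10, lymphocyte 0 and 2 of 7, and mesothelial 0 and 2 of 6, counts that moved with the alternatives for several lists. The shares passing ran from 28.6% (lymphocyte) to 50.0% (portal fibroblast), beside 42.7% of all probes. The alternatives were other scalings, filters on dim probes, a linear offset (the 10th percentile of linear signals), other variance settings, a replicate block and leaving out each array. Figures were drawn with matplotlib 3.10.9. The number of arrays limits the precision.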

Additional observations from a re-analysis of the deposited data

How the results depend on the processing

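The 8 collagen genes gave 6 calls, and between 5 and 7 under 16 alternatives. Col4a1, Col4a2, Col6a1, Col12a1 and Col14a1 kept their direction and stayed past the threshold under all 15 alternatives run for single probes, with Col4a1 at 0.49 to 0.59, Col4a2 at -0.64 to -0.39 and Col6a1 at 1.03 to 1.25. Col6a2 lost its call without WT replicate 3 and under the replicate block (adjusted p = 0.073). The brighter Col15a1 probe ranged from -0.49 to 0.11 when 1 array was left out, turning positive without KO replicate 1, and the cause was not tested. Over all probes, 10025 passed, 7724 with the replicate block and 7954 to 9082 without 1 array. The block is no pairing: deviations of KO and WT arrays with the same number correlated at -0.0020 to 0.0077, and it left 5 collagen calls. Of the other genes named, Col9a3 (adjusted p = 0.067), Itga2, Mrc2 and Mia2 also lost their calls under it. The collagen receptor list had 6 calls, but 11 with a trended and robust variance prior, and the protease list had 9, but 5 with the block and without WT replicate 2 or 3. The alternative without probes at the lowest value of an array was chosen after seeing the data. Partner chain ratios kept their direction under 9 alternatives, with Col4a1 to Col4a2 at 0.94 to 1.14. Of the cell type lists, portal fibroblast markers had 5 calls, but 2 with the block and 3 without any 1 array other than WT replicate 1. Lymphocyte markers had 2 lower, but no call without KO replicate 2 or WT replicate 1, and 2 higher and 0 lower without WT replicate 2. Mesothelial markers had 2 calls, but 1 without KO replicate 1 or any 1 WT array. The intervals of Col6a3 and Col15a1 leave room for differences in either direction.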

Other observations

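The genes that flank the adjacent collagen pairs were read as well, as the nearest annotated protein-coding gene with a probe on either side. Beside Col4a1 and Col4a2, Irs2, an adaptor of insulin signalling, differed by -0.0036 (95% confidence interval -0.17 to 0.16) and the small GTPase gene Rab20 by 0.11 (-0.07 to 0.28), with adjusted p-values of 0.97 and 0.27 in limma. Beside Col6a1 and Col6a2, Ftcd, an enzyme of histidine breakdown that hepatocytes make, differed by -0.17 (-0.66 to 0.33) with an adjusted p of 0.53. The RNA-binding protein gene Pcbp3 differed by 0.37 (0.03 to 0.72) with an adjusted p of 0.079, and its 3 KO arrays were above its 3 WT arrays. None of these neighbours passed the threshold, and whether they differ from the collagen genes beside them was not tested.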
